A study of Mus musculus with 3 samples.

Results

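The genes for the proteins of the cytoplasmic ribosome were followed through gastrulation in single cells of the mouse embryo. Members were chosen by symbol alone: names that begin with Rpl or Rps and a digit, names that begin with Rplp, and Rpsa, leaving out the Rps6 kinases and symbols that end as pseudogenes. This rule took 86 of the 32285 genes counted. Of these, 52 belong to the large subunit and 33 to the small subunit, and the last, Rps19bp1, is not a ribosomal protein but a nucleolar protein that binds one. Among the members are 8 variant copies, each a relative of a canonical member: Rpl3l, Rpl7l1, Rpl10l, Rpl22l1, Rpl36al, Rpl39l, Rps27l and Rps27rt. Genes of the mitochondrial ribosome are not members.

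Cells came from normal, untreated embryos of the ARC mouse strain, in 3 droplet libraries of 1 stage each. Per the labels, those of E7.0 and E7.25 (E for embryonic day) are of the embryo, and the E7.5 library is of its posterior region, called E7.5 posterior here. The number of embryos behind each library is not given. With 1 library per stage no test between stages is possible, and stage, library and, at E7.5, dissected region cannot be told apart. Every interval below is a 95% interval for counting error only.

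The ribosome joins a small subunit, which reads the mRNA, to a large subunit, which forms the peptide bond. Cells make its proteins in matched amounts together with ribosomal RNA, and spend a large part of their transcripts on them. Many of these mRNAs begin with a C followed by a run of C and T, the terminal oligopyrimidine start, through which mTOR signalling and LARP1 adjust their translation, while MYC proteins raise transcription of the genes and of the factors that assemble ribosomes. Loss of 1 copy of several members causes Diamond-Blackfan anaemia in humans and tail, skeletal or pigment defects in mice.

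The transcription starts of 11 members are shown because the results below turn on them: the 5 lowest at E7.25 among members with a listed start, the 3 highest there, and the 3 whose part in the whole differed most between kinds of cells. Each line gives 20 bases before and 10 bases from the start listed by RefSeq on GRCm38.p6, read 5′ to 3′ on the strand of the gene, with the longest run of C and T in capitals.
Rpl35, chr2:39005122-39005151, minus strand: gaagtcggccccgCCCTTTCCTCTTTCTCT
Rps28, chr17:33824553-33824582, minus strand: tcctgggtaccgcgtgcggTCTCgcgagag
Rpl38, chr11:114668560-114668589, plus strand: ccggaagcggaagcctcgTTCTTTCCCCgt
Rpl39, chrX:37085213-37085242, minus strand: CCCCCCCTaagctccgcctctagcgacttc
Rps27, chr3:90213639-90213668, minus strand: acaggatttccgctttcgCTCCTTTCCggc
Rps15, chr10:80292411-80292440, plus strand: gCCCTCCCggcagagctcgcgataactgcg
Rpsa, chr9:120127746-120127775, plus strand: tggctgtgggttatttaaggacgtcaTTTC
Rpl12, chr2:32961692-32961721, plus strand: gcgtgggcggagcaggatccgTCTTTTCgg
Rpl36al, chr12:69184058-69184087, minus strand: gttcgcaTTCCCgtcgctcaggttcagttc
Rpl7l1, chr17:46782647-46782676, minus strand: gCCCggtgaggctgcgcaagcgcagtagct
Rps19bp1, chr15:80264297-80264326, minus strand: accgccagggcggaagtagCTCgccgcgtg

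A listed start was found for 66 of the 86 members. The search on the strand of the gene asked for a C at the start or within 2 bases of it, followed by 4 bases that are each C or T. It was met by 20 of 57 canonical members (35.1%) and by 2 of 8 variant copies (25%), and by 10.6% of all 27025 genes in the same table, or 8.96% of its 32851 listed starts. A run of 8 or more C or T within the 41 bases around the start was present in 29 of the 57 canonical members (50.9%) and in 18.8% of all genes. Among the starts printed, those of Rpl35, Rpl38, Rps27 and Rpl12 met the first search, whereas those of Rps28, Rpl39, Rps15, Rpsa, Rpl36al, Rpl7l1 and Rps19bp1 did not. The letters describe the listed start, which can differ from the start used in these cells.

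Barcodes passed with at least 1000 genes seen and no more than 10% of transcripts from mitochondria. This left 7941, 5194 and 8438 cells, in the order E7.0, E7.25, E7.5 posterior that is kept throughout, from 10232, 6173 and 11468 barcodes. They held 108350108, 47672673 and 87940979 unique molecular identifiers (UMIs), each a captured 3′ end of an mRNA, with medians of 11295, 8298 and 9254.5 UMIs per cell. Between 8 and 22 cell barcodes were shared by any pair of libraries. Clusters were made without the members, so that no class of cells rests on them, and were named only as likenesses to fixed markers. All 17 clusters but 1 took a name. The unnamed cluster, of 335, 88 and 285 cells, had few mitochondrial UMIs (a median of 0.51%, 0.17% and 0.10%) and shallow cells (medians of 3518, 3147 and 4154 UMIs). Different clusters held most of a class in different libraries. A nascent mesoderm-like cluster gave 2373 of the 2415 mesoderm-like cells at E7.0 but 118 of 1044 and 278 of 2523 in the later libraries, and a caudal epiblast-like cluster gave 20 of 2990, 206 of 1665 and 2255 of 3897 epiblast and streak-like cells.

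These genes supplied between 26.7% and 28.3% of all transcripts at every stage. Member UMIs made up 28.3% of the total (interval 28.27 to 28.29), 26.7% (26.70 to 26.72) and 27.5% (27.46 to 27.47) in that order. Among single cells, the middle 90% spanned 20.7% to 32.2%, 17.9% to 30.9% and 22.3% to 31.6%. The spread between cells of 1 library was therefore far wider than the distance between libraries. Members of the large subunit held 16.0%, 15% and 15.4% of all UMIs, and those of the small subunit 12.3%, 11.7% and 12.0%. The 78 genes of the mitochondrial ribosome together stood at 10308, 10136 and 9412 CPM, the usual scale of UMIs of a gene relative to the library's whole count.

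All 86 members had at least 1 UMI in each library, and 83, 83 and 82 of them reached 50 CPM. Levels below are CPM, counted once per captured 3′ end and therefore not divided by length. Rpl41, the shortest protein of the ribosome, stood at 9000, 8046 and 8192 CPM in the 3 libraries. The stalk, through which elongation factors reach the ribosome, was also abundant: its base Rplp0 stood at 6264, 6982 and 5964 CPM and its arm Rplp1 at 7149, 6222 and 7143 CPM. The second arm, Rplp2, was lower, at 3905, 3338 and 3490 CPM. Rpl5 and Rpl11, which bind 5S RNA and restrain MDM2 when free, stood at 1840, 1730 and 1786 CPM and at 3810, 3990 and 3841 CPM. At the other end were variant copies: Rpl10l (0.203, 0.147 and 0.0114 CPM), Rpl3l (0.711, 0.734 and 0.421 CPM), Rpl39l (5.53, 2.54 and 3.13 CPM) and Rps27rt (51.0, 55.1 and 42.7 CPM). Rps19bp1 came next, at 157, 135 and 126 CPM.

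Visceral endoderm-like cells carried the smallest part of ribosomal protein transcripts of the classes with 100 or more cells, in each library. Visceral endoderm is the absorptive layer that encloses the embryo and feeds it before a placenta forms. Members made up 21.3% of its UMIs in the E7.0 library (710 cells, interval 21.26 to 21.32), 21.2% in the E7.25 library (851 cells, 21.14 to 21.19) and 20.05% in the E7.5 posterior library (398 cells, 20.01 to 20.09). Epiblast and streak-like cells, the dividing source of the embryo, held 29.1%, 28.3% and 27.9% (2990, 1665 and 3897 cells). The first minus the second was -7.79, -7.14 and -7.85 percentage points.

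The other classes held more. Mesoderm-like cells held 29.0%, 28.4% and 28.04% (2415, 1044 and 2523 cells), nearly as in the epiblast and streak-like cells. Node and notochord-like cells held 29.7% at E7.0 and 28.1% at E7.5 posterior (187 and 237 cells, with too few at E7.25). Extraembryonic mesoderm-like cells stood at 28.1%, 27.96% and 26.8% (164, 796 and 632 cells). Extraembryonic ectoderm and trophoblast-like cells stood at 27.3% and 25.8% at E7.0 and E7.25 (109 and 312 cells). Definitive endoderm and gut-like cells held 27.5%, 25.7% and 25.4% (1031, 369 and 454 cells) and fell into a pair of clusters, of which the first, with 5 visceral endoderm markers as well as 9 of its own among its top 100 genes, held 24.3%, 22.9% and 23.6% and the second 29.2%, 27.96% and 27.5%. The unnamed cluster of few mitochondrial UMIs was the highest, at 33.0%, 31.7% and 34.2%.

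**Figure D1:**
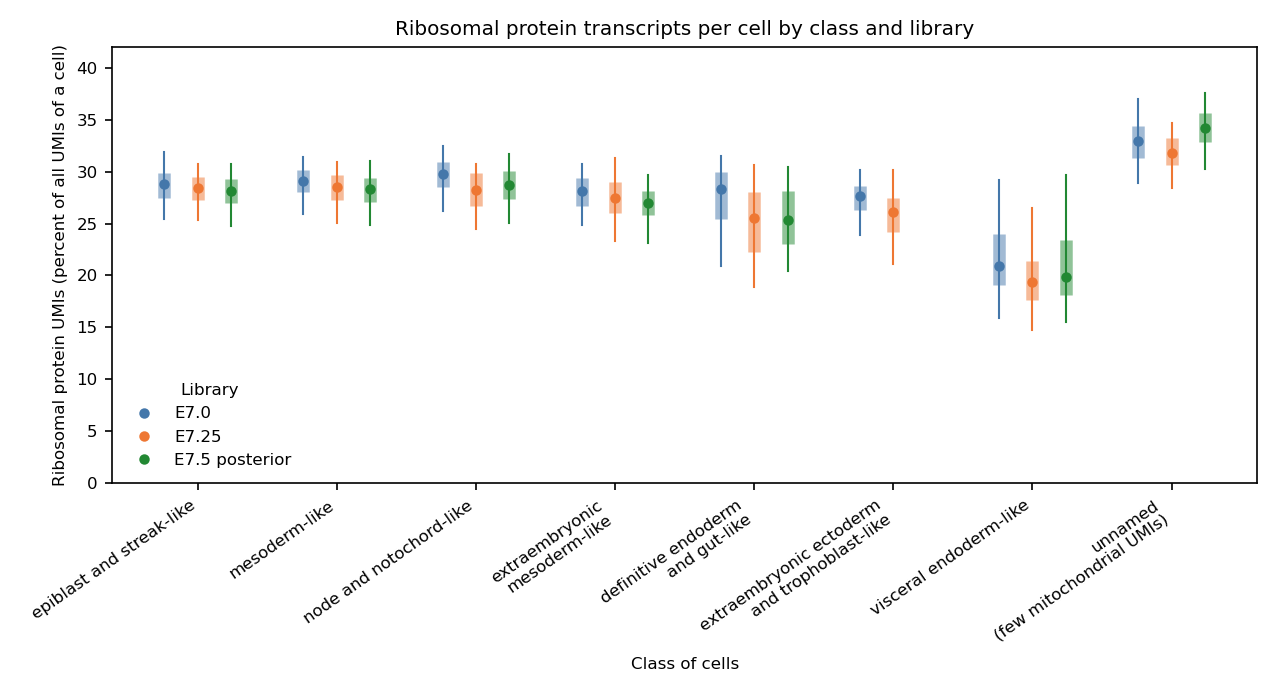
Percent of a cell's UMIs that came from ribosomal protein genes (vertical axis) by class of cells and library. Points are medians over cells, boxes the middle 50% and lines the middle 90%. Visceral endoderm-like cells lie lowest in every library, with medians of 20.9%, 19.4% and 19.9% against 28.8%, 28.5% and 28.1% in epiblast and streak-like cells.

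Mitochondrial UMIs and depth moved with the class. Visceral endoderm-like cells had a median of 4.17%, 5.35% and 6.82% mitochondrial UMIs and epiblast and streak-like cells 2.26%, 2.18% and 3.32%. With mitochondrial UMIs taken out of the total, members still made up 22.3%, 22.3% and 21.5% of the visceral endoderm-like and 29.8%, 29.0% and 28.9% of the epiblast and streak-like cells. When each cell was thinned to 5000 UMIs, leaving out 140, 104 and 98 shallower visceral endoderm-like cells, they held 20.5%, 20.02% and 19.4%, against 28.7%, 28.4% and 28.1%. Keeping only cells with at most 5% mitochondrial UMIs narrowed the difference to -5.77, -5.03 and -3.49 points. At E7.25 and E7.5 posterior the median of the visceral endoderm-like class lay above this limit, so the filter also changed which cells made up the class. What part mitochondrial content has in the difference was not tested. The 16 visceral endoderm markers summed to 38448, 35182 and 39082 CPM in the visceral endoderm-like cells and to 290, 528 and 326 CPM in the epiblast-like cells.

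Within the visceral endoderm-like class the level was not uniform. Its main cluster held 20.2%, 19.0% and 18.8%, with 4.78%, 5.64% and 7.66% mitochondrial UMIs. A cluster of shallow cells with 0.15% and 0.14% mitochondrial UMIs held 26.9% at E7.0 and 27.5% at E7.5 posterior. A small cluster of deep cells, 51 and 129 in number, held 25.3% and 26.2% at E7.0 and E7.25. The part that mitochondrial content, doublets and depth have in the differences inside this class was not tested.

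The lower level in visceral endoderm-like cells was spread over nearly all members. Compared with epiblast and streak-like cells of the same library, 82 of 83 measured members lay below a ratio of 1 in the E7.0 library, as did 82 of 83 and 81 of 82 in the later ones. Median log2 ratios were -0.48, -0.43 and -0.50, beside -0.02, -0.01 and -0.02 over all genes. At least 1.5-fold lower were 20 of 83 members at E7.0 (18.4% of all genes measured were), 14 of 83 at E7.25 (17.5%) and 27 of 82 at E7.5 posterior (20.7%). No member was 1.5-fold higher, where 27.3%, 26.4% and 27.1% of all genes were. The share past 1.5-fold lower was thus above that of all genes at E7.0 and E7.5 posterior and about equal to it at E7.25. The shift of members ran from -0.83 to 0.12 at E7.5 posterior. Ratios over all genes ran from -4.46 to 9.56, but these genes are far more in number and include markers of the class, so the widths cannot be compared.

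Individual members set the width of that shift. Rplp0, the base of the stalk, stood at 3671 CPM in visceral endoderm-like and 6535 CPM in epiblast and streak-like cells at E7.0, at 4675 and 7519 CPM in the next library, and at 3602 and 6078 CPM in the last (log2 ratios -0.83, -0.69 and -0.75). Its arms were less reduced, Rplp1 at -0.46, -0.23 and -0.43 and Rplp2 at -0.27, -0.24 and -0.34. Rpl15, of the large subunit, was low in all 3 libraries, at -0.75, -0.66 and -0.83. The 5S RNA partners lay near the middle, Rpl5 at -0.45, -0.52 and -0.55 and Rpl11 at -0.48, -0.46 and -0.57. The variant copy Rpl36al did not follow: it stood at 1290 and 1281 CPM, 1152 and 1188 CPM, and 1269 and 1171 CPM, ratios of 0.01, -0.04 and 0.12.

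Other lists of the translation machinery also had medians below 0 in these cells, while that of the mitochondrial ribosome lay near 0. In these lists a gene was measured at 20 CPM or more, where 18.3%, 17.4% and 20.2% of all genes were 1.5-fold lower in visceral endoderm-like than in epiblast and streak-like cells, and 30.1%, 29.2% and 30.7% higher. Of 27 other RNAs listed as having an oligopyrimidine start, 11, 10 and 10 were lower and 0 higher, with medians of -0.47, -0.49 and -0.47. This list includes the non-coding Gas5, Snhg1, Snhg6 and Snhg8, and the starts of its genes were not checked here. It also repeats genes of the lists below, Npm1 of the assembly factors and Pabpc1, Eif3e, Eif3f, Eif3h and Eif4b of the initiation factors. Of 59 nucleolar assembly factors, 13, 9 and 15 were lower and 0 higher (medians -0.33, -0.25 and -0.32). Among them Dkc1, which forms pseudouridine in ribosomal RNA, stood at 105, 147 and 101 CPM against 241, 298 and 239 CPM. Of 30 initiation factors 10, 6 and 8 were lower and 0, 1 and 0 higher, the last being Eif4g1 at E7.25 (453 against 276 CPM). Of 11, 12 and 11 measured genes of RNA polymerase I, which makes ribosomal RNA, 4, 4 and 4 were lower and 0, 1 (Taf1c at E7.25) and 0 higher. Taf1c, at 21.7 against 13.9 CPM, passed the limit of 20 CPM only through the cells in which it was higher, so nothing is read from it. In the MYC family, Mycn and Mycl were lower and Myc was higher. Mycn stood at 23.0, 27.0 and 21.1 CPM in visceral endoderm-like and at 49.8, 50.3 and 48.7 CPM in epiblast and streak-like cells. The others had lower levels, Mycl at 5.18, 2.30 and 1.45 CPM against 14.9, 10.0 and 11.6 CPM. Myc stood at 11.3, 8.48 and 12.1 CPM against 7.17, 3.88 and 3.2 CPM. The 78 genes of the mitochondrial ribosome had medians of -0.05, -0.08 and -0.03, with 4, 5 and 6 lower and 6, 5 and 5 higher.

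Between libraries the members moved apart from one another at E7.25. Rpl35, at the exit tunnel of the large subunit, stood at 1931, 488 and 1734 CPM. Rps28 and Rps29, small proteins in the head of the small subunit, stood at 4774, 1848 and 4054 CPM and at 6981, 2867 and 6317 CPM. The E7.25 library was thus the lowest by far for all 3 genes. Rpl38, whose loss causes the Tail short defect of the axial skeleton and which affects translation of Hox mRNAs, stood at 3783, 1737 and 3188 CPM. Rpl39, also at the exit tunnel, stood at 3324, 1696 and 3338 CPM.

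Log2 ratios of E7.25 to E7.0 were -1.98 for Rpl35 (interval -2.0 to -1.96), -1.37 for Rps28 (-1.38 to -1.36), -1.28 for Rps29 (-1.29 to -1.28), -1.12 for Rpl38 (-1.13 to -1.11) and -0.97 for Rpl39. A further 5 members were at least 1.5-fold lower: Rps27 (-0.84), Rps21 (-0.81), Rpl36a (-0.79), Rps27l (-0.77) and Rpl10 (-0.69). That made 10 of 83 measured members, where 7.09% of all 3017 genes at 50 CPM or more were lower. The median over all 83 members was -0.07, beside 0.06 over all genes, and 69 members lay within 1.5-fold, down to Rpl37 at -0.54.

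On the other side, 4 of the 83 members were at least 1.5-fold higher at E7.25, fewer than the 9.74% of all genes. Rps15, of the head of the small subunit, stood at 2600, 4555 and 2885 CPM (log2 ratio of E7.25 to E7.0 0.81, interval 0.80 to 0.82). Rpsa, also known as the laminin receptor, stood at 4880, 7581 and 5608 CPM (0.64). Rpl12, at the base of the stalk, stood at 2723, 4118 and 3117 CPM (0.60). Rpl26 lay just inside the threshold at 1099, 1659 and 1049 CPM (0.59), and Rpl8 just outside at 4369, 6376 and 4365 CPM (0.55). Where the libraries were scaled by trimmed means (TMM) instead of by total UMIs, every ratio of E7.25 to E7.0 moved by -0.20, and 17 members were lower and 1, Rps15, was higher.

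The comparison of E7.5 posterior with E7.25 shares the E7.25 library with the one above, so opposite signs in both are not independent. At least 1.5-fold higher were 9 of 83 members (5.79% of all genes were), led by Rpl35 (1.83), Rps29 (1.14), Rps28 (1.13), Rpl39 (0.98) and Rpl38 (0.88). Rps21 (0.43) and Rpl36a (0.50), lower at E7.25, did not reach 1.5-fold here, and Rpl22l1 (0.63) did without having been among the 10 lower (-0.46). At least 1.5-fold lower were 2 (8.56% of all genes), Rpl26 (-0.66) and Rps15 (-0.66), followed by Rpl8 (-0.55), Rpsa (-0.43) and Rpl12 (-0.40). By TMM the ratios moved by 0.12, and 11 were higher and 0 lower.

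E7.5 posterior and E7.0, which flank E7.25 in time, were close to each other. No member of 83 differed by 1.5-fold, where 1.38% of all genes were higher and 2.40% lower, and the ratios of members had an SD of 0.14 around a median of -0.04. The lowest were Rps21 (4375 and 3361 CPM at E7.0 and E7.5 posterior, log2 ratio -0.38), Rpl37 (4936 and 3905 CPM, -0.34), Rps19bp1 (-0.32), Rpl36a (-0.28) and Rps24 (-0.26). The highest were Rps4x (3063 and 3726 CPM, 0.28), Rpsa, Rps18 and Rpl12 (0.20 each) and Rpl10 (0.18).

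**Figure D2:**
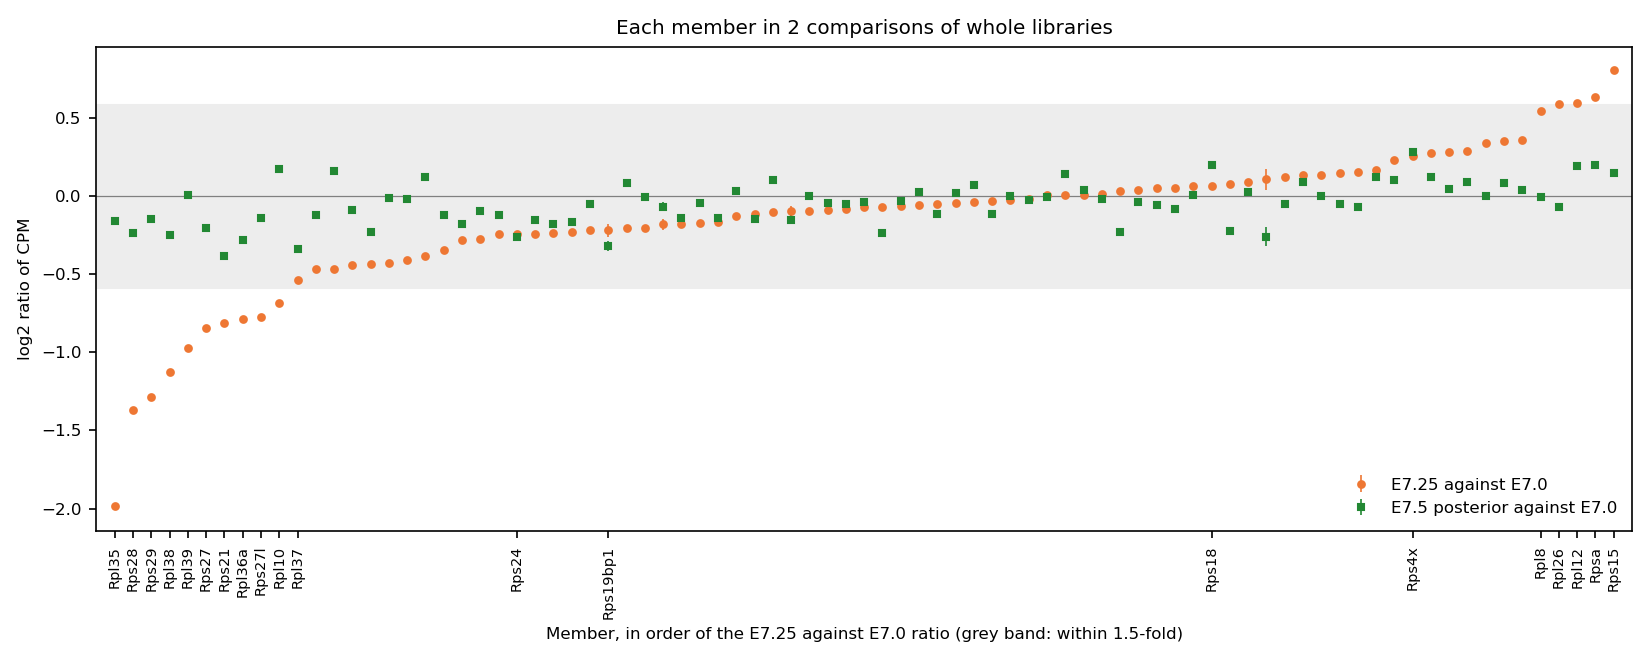
Log2 ratio of CPM (vertical axis) of each measured member, in order of its ratio of E7.25 to E7.0, for E7.25 against E7.0 (circles) and E7.5 posterior against E7.0 (squares), with 95% counting intervals as vertical lines and names at the members past 1.5-fold or among the 5 highest or 5 lowest of a comparison. Circles run from -1.98 at Rpl35 to 0.81 at Rps15, while every square lies inside the grey band of 1.5-fold.

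The departure at E7.25 had the same sign and nearly the same size in each kind of cell. In 6 classes with 100 or more cells in both libraries, the log2 ratio of Rpl35 lay between -2.0 in mesoderm-like and -1.73 in trophoblast-like cells. In epiblast and streak-like cells it stood at 1983, 515 and 1768 CPM, in mesoderm-like cells at 1946, 488 and 1744 CPM, and in visceral endoderm-like cells at 1724, 443 and 1440 CPM. Classes thus differed little beside the difference between libraries. Rps28 (-1.41 to -1.31), Rps29 (-1.29 to -1.20), Rpl38 (-1.22 to -1.06), Rpl39, Rps27, Rps21 and Rpl36a were at least 1.5-fold lower in 6 of 6 classes, Rps27l in 5 and Rpl10 in 4. Rps15 (0.72 to 0.92), Rpsa (0.60 to 0.85) and Rpl12 (0.60 to 0.70) were higher in 6 of 6, and Rpl26 in 4. Members higher and lower numbered 5 and 9 in epiblast and streak-like cells (6.81% and 6.74% of all genes were), 4 and 9 in mesoderm-like cells (7.81% and 7.85%) and 5 and 10 in visceral endoderm-like cells (8.27% and 8.18%). In gut-like cells they were 3 and 10 (12.3% and 8.47% of all genes), in extraembryonic mesoderm-like cells 5 and 10 (8.69% and 8.46%) and in trophoblast-like cells 3 and 10 (10.7% and 9.19%). No member at 50 CPM or more in every library was called in opposite directions in a pair of classes in the same comparison. How many of all genes were was not counted, so this is not read as a trait of the members.

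The members low at E7.25 were mostly those with the shortest coding sequence. Rps28, Rps29, Rpl38, Rpl39, Rps27, Rps21 and Rps27l have coding lengths of 207, 168, 210, 153, 252, 249 and 252 bases. Of 11 measured members under 300 bases, 7 were lower, with a median log2 ratio of -0.81. Of 30 members from 300 to 450 bases 2 were lower and 2 higher (median -0.16), and the medians at 450 to 600 and 600 to 1000 bases were 0.01 and 0.13 (19 and 21 members). Genes outside the family shared the trend at smaller size: medians rose from -0.25 under 300 bases, where 28.1% of 139 genes were lower, to 0.15 at 1000 to 2000 bases. Under 300 bases, 4 members were not lower by 1.5-fold: Rpl41, the shortest at 75 bases (-0.16), Rps27rt (252 bases, 0.11), Rpl37 (291 bases, -0.54) and Rpl37a (276 bases, -0.43). Rpl36a, Rpl35 and Rpl10, with 318, 369 and 642 bases, were lower without being under 300.

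Across the 83 members the ratio of E7.25 to E7.0 and the log of the coding length had a Pearson's r of 0.49 and a Spearman's rho of 0.50, and r was 0.51 without the 2 farthest points. Across 2904 other genes r was 0.31. Between E7.5 posterior and E7.0, where no member was called, r was 0.52 and rho 0.59 over the members. Across 2722 other genes r was 0.13 in that comparison. These values are over genes, which share libraries and depth, and are given as a description only. Which library used which version of the chemistry is not given, so library preparation and stage cannot be told apart here.

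**Figure D3:**
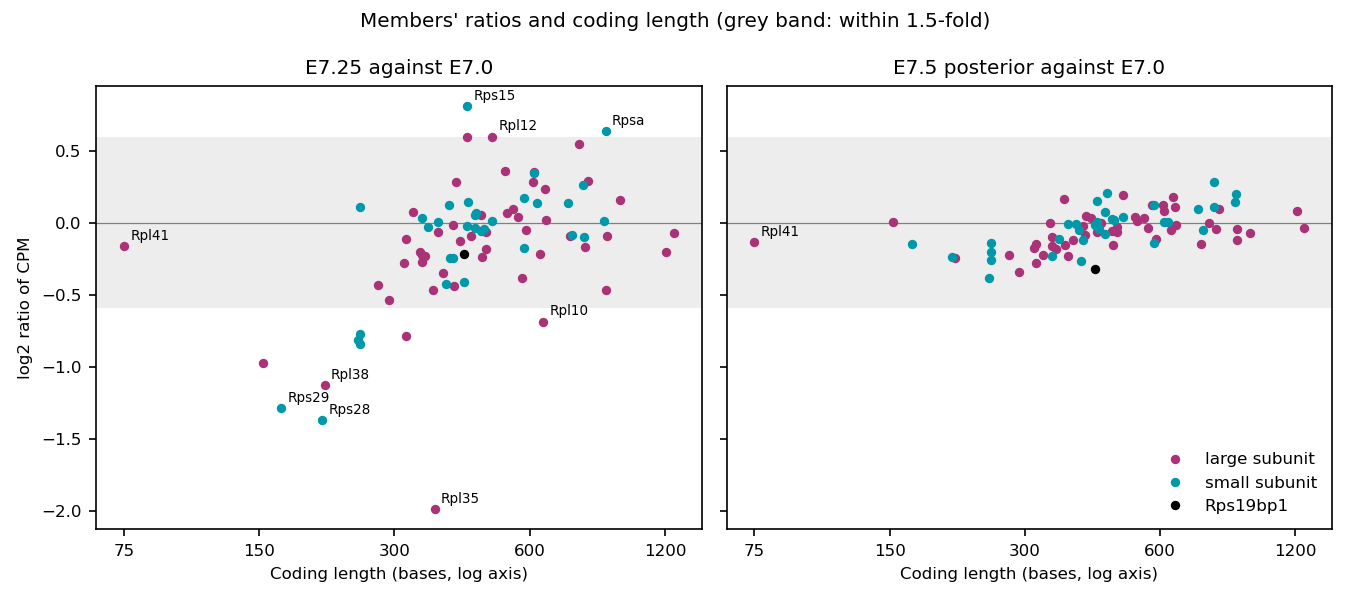
Log2 ratio of CPM (vertical axis) against coding length in bases (horizontal log axis) for the measured members, for E7.25 against E7.0 on the left and E7.5 posterior against E7.0 on the right. At left, 7 of 11 members under 300 bases lie below the grey band of 1.5-fold and Rpl41 within it, and at right every member lies within it.

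Ribosomal protein genes have many processed copies in the genome, and reads from the 3′ end can match more than 1 gene. In 29 measured members the last 300 bases of the transcript held an exact match of at least 91 bases to a transcript of another gene. Of these 29, 7 were lower and 0 higher at E7.25, with a median of -0.22, while of the 54 others 3 were lower, among them Rpl35, and 4 higher (median -0.03), where 7.09% of all genes were lower and 9.74% higher. Rps27rt, a copy of Rps27, shared 90.3% of that stretch with Rps27, so their counts are uncertain. Other named members also shared part or all of it with another gene. Among those lowest at E7.25 were Rpl38 (71%), Rps29 (57%) and Rps28 (31%). Others were Rpl10 (100%), Rpl36al (68%), Rpl36a (67%), Rpl22l1 (64.7%) and Rps27l (30.7%). The counts of all these members are uncertain too, as are the percentages of pairs built on them, and their intervals hold counting error only. How the counting software assigned reads between such copies was not tested. Of 22 measured members with the oligopyrimidine start described above, 5 were lower and 1 higher, and of 41 with a listed start that did not meet the search 4 and 3, with medians of -0.09 and -0.09.

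By role, the counts below stand beside 7.09% of all genes lower and 9.74% higher, and beside 10 and 4 of the 83 members. The 3 stalk members were not called at E7.25 (median -0.20), nor were Rpl5 (-0.09) and Rpl11 (0.07). Of 19 genes of Diamond-Blackfan anaemia, 1 was higher (Rpl26) and 4 were lower (Rpl35, Rps27, Rps28 and Rps29), with a median of -0.09. Of 6 genes of mouse patterning, tail or pigment mutants, Rpl38 was lower. Of the 4 members on the X chromosome, Rpl10, Rpl36a and Rpl39 were lower and Rps4x was not. Large and small subunits each had 2 members higher and 5 lower.

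Genes around the ribosome mostly lay within 1.5-fold between E7.25 and E7.0. At 20 CPM or more, 12.7% of all genes were 1.5-fold higher and 6% lower. Of 59 assembly factors 2 were higher and 1 lower, of 30 initiation factors 1 and 2, and of 78 mitochondrial ribosomal protein genes 0 and 3. Among 8 measured elongation factors Eef2, which moves the ribosome along the mRNA, stood at 840, 1406 and 956 CPM, and Eef1e1 at 97.7, 49.7 and 80.3 CPM. Fau (4002, 3904 and 3887 CPM) and Rack1 (2796, 3299 and 2889 CPM), which encode proteins of the small subunit under another kind of symbol, lay within 1.5-fold.

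Once the total is set aside, most members kept a similar share of the ribosomal protein transcripts in each kind of cell. For each member, its share of all member UMIs in a class was divided by its share in the whole library. Over 82 members at 50 CPM or more in every library, the range of that log2 ratio across classes had a median of 0.20 (quartiles 0.13 and 0.27). Rpl34 kept the steadiest share, with a range of 0.04. A departure of at least 1.5-fold in any class was found for 1 of 83 members at E7.0 (Rps19bp1), 0 of 83 at E7.25 and 2 of 82 at E7.5 posterior (Rpl36al and Rpl7l1), where 52.4%, 38.7% and 48.7% of all genes departed as far on the same scale. That scale divides by the UMIs of the members, which centres the members and not the other genes, so nothing is read from the difference.

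The 8 members with the widest range were Rpl36al (0.90), Rpl7l1 (0.83), Rps19bp1 (0.80), Rpl10 (0.44), Rpl29, Rplp1 and Rps27l (0.38 each) and Rps21 (0.36). The first 3 are variant copies or not ribosomal proteins at all, and the ninth, Rps3, lay at 0.35. Rpl36al, a copy of Rpl36a that has 1 exon and lies on chromosome 12, held a larger share in visceral endoderm-like cells (log2 0.45, 0.33 and 0.62 over the library) and a smaller one in node and notochord-like cells (-0.45 at E7.0 and -0.36 at E7.5 posterior). Its level in node-like cells was 962 and 904 CPM, beside 1281 and 1171 CPM in epiblast and streak-like cells.

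Node and notochord-like cells also had the smallest shares of Rpl7l1 and Rps19bp1. Rpl7l1, a relative of Rpl7 that works in assembly of the large subunit, stood there at 161 and 133 CPM at E7.0 and E7.5 posterior (log2 share -0.58 and -0.68), against 232 and 213 CPM in epiblast and streak-like cells. It was high in trophoblast-like cells, at 284 and 289 CPM at E7.0 and E7.25 (0.35 and 0.46). Rps19bp1 stood at 102 and 92.3 CPM in node-like cells (-0.69 and -0.49) and had a larger share in visceral endoderm-like cells (0.30, 0.33 and 0.32). Rps27l, a p53 target, was low in node-like cells too, at 909 and 783 CPM (-0.32 and -0.36), whereas Rpl10 was high (0.23 and 0.18).

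Canonical members moved over a smaller range. In visceral endoderm-like cells Rps21 held a larger share in all 3 libraries (log2 0.29, 0.26 and 0.32), as did Rpl38 (0.23, 0.19 and 0.31). Rplp0 (-0.36, -0.24 and -0.27), Rpl29 (-0.27, -0.22 and -0.31) and Rpl10 (-0.21, -0.25 and -0.28) held smaller shares. Rplp1 was low in gut-like cells (-0.15, -0.20 and -0.25) and high in trophoblast-like cells (0.19 and 0.24). In visceral endoderm-like cells 22 members had a larger and 32 a smaller share in all 3 libraries. In epiblast and streak-like cells these numbers were 20 and 17. Counted were members whose interval, for the class against the rest of its library, lay beyond 0 in each library. The same count over all genes was not made, so nothing is read from these numbers. Most of these shifts are small, and each library is a single sample.

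**Figure D4:**
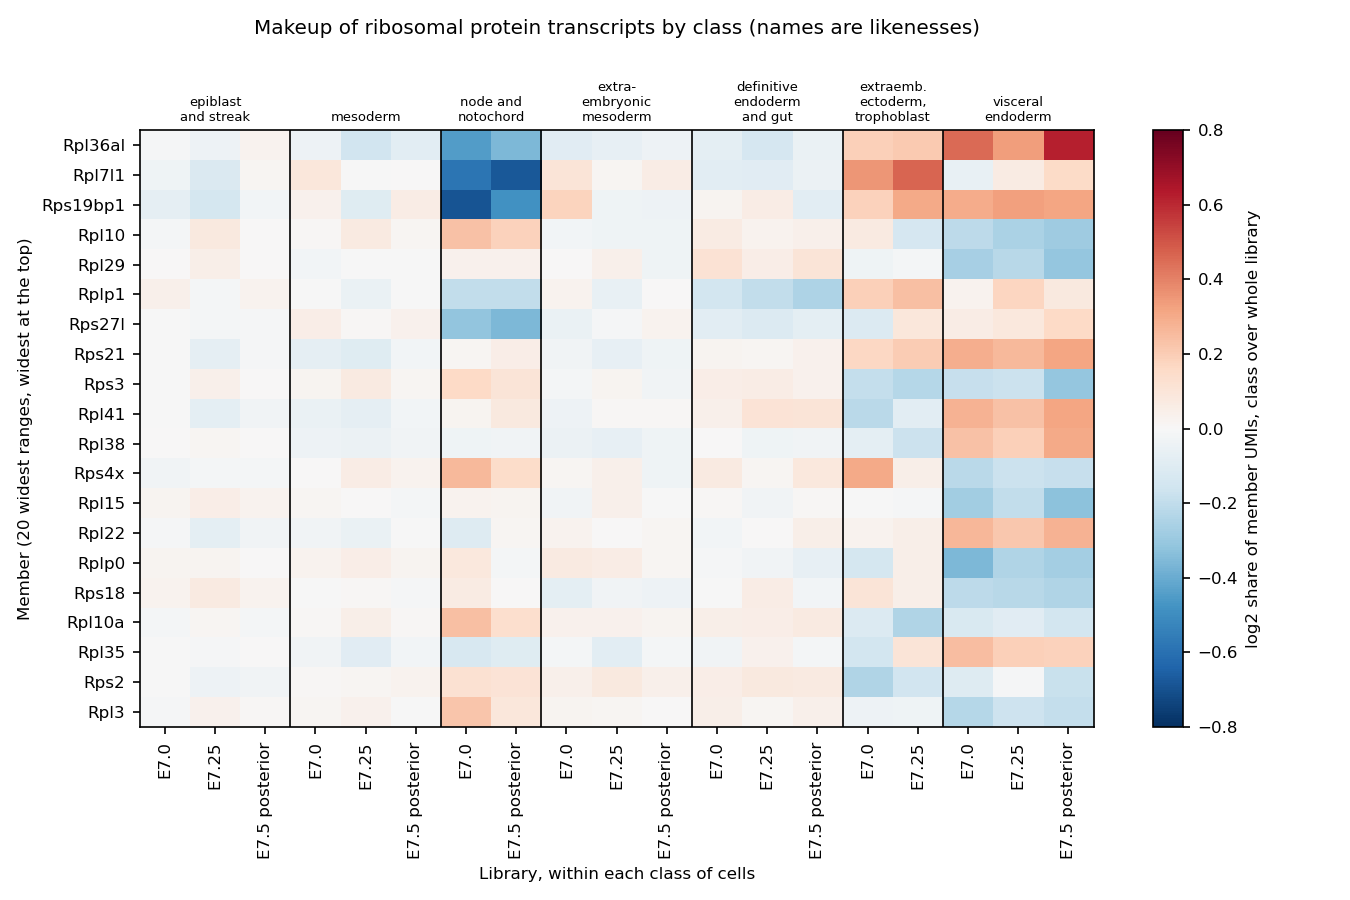
Heat map of the log2 share of member UMIs in a class over the share in its library, for the 20 members of widest range (rows) by class and library (columns), with red for a larger and blue for a smaller share. Rpl36al is red in visceral endoderm-like columns (0.45, 0.33 and 0.62), and Rpl7l1, Rps19bp1 and Rpl36al are blue in node and notochord-like columns.

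Variant copies can be read against their canonical partners. Rpl36al made up 37.5%, 48.9% and 39.8% of the UMIs of Rpl36al and Rpl36a together in the 3 libraries. In visceral endoderm-like cells it made up 47.0% (interval 46.3 to 47.6), 55.1% (54.4 to 55.9) and 52.2% (51.2 to 53.3), and in node and notochord-like cells 28.7% (27.6 to 29.8) and 31.8% (30.6 to 33.1). These were the highest and the lowest class in each library that had them. The higher value at E7.25 goes with the lower level of Rpl36a there, at 2081, 1208 and 1713 CPM.

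Rpl22l1, whose partner Rpl22 represses it, showed the opposite pattern in visceral endoderm-like cells. It made up 36.6%, 34.7% and 41.3% of its pair in the libraries, but 28.8% (28.2 to 29.4), 30.2% (29.5 to 30.8) and 34.8% (33.8 to 35.8) in visceral endoderm-like cells and 37.6%, 37.1% and 42.2% in epiblast and streak-like cells. Its level there was 781, 666 and 926 CPM, against 1266, 939 and 1397 CPM in all other cells of the library. Rps27l held 29.5%, 30.4% and 30.4% of its pair with Rps27, and 23.5% and 23.6% in node-like cells. Rpl7l1 held 8.28%, 6.47% and 7.08% of its pair with Rpl7, and Rps27rt 1.93%, 3.67% and 1.86% of its pair with Rps27.

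Of the rarest copies, Rpl3l and Rpl39l had levels above the rest of the library in extraembryonic classes. Rpl3l, a copy of Rpl3 known from heart and skeletal muscle, stood at 5.57 CPM (9 UMIs) in trophoblast-like cells at E7.0 and 5.05 CPM (16 UMIs) at E7.25, against 0.637 and 0.427 CPM in all other cells. The ratios were 8.75-fold (3.84 to 17.6) and 11.8-fold (5.69 to 24.3). Rpl39l, a copy of Rpl39 known from testis, stood at 13.6, 3.76 and 10.4 CPM in visceral endoderm-like cells (113, 31 and 36 UMIs), against 4.86, 2.28 and 2.83 CPM elsewhere. Its ratios were 2.80-fold (2.26 to 3.44), 1.65-fold (1.06 to 2.50) and 3.68-fold (2.52 to 5.24), although at E7.25 epiblast and streak-like cells, at 4.01 CPM, were not below the visceral endoderm-like cells. Rpl10l, known from testis, had 22, 7 and 1 UMIs in the 3 libraries. Of the 22 at E7.0, 5 were in trophoblast-like cells (3.10 against 0.159 CPM, 19.4-fold, interval 5.61 to 54.9), and of the 7 at E7.25, 2 were (5.62-fold, interval 0.535 to 34.3). Rpl39l made up 0.166%, 0.149% and 0.094% of its pair with Rpl39, and Rpl3l and Rpl10l less of theirs.

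**Figure D5:**
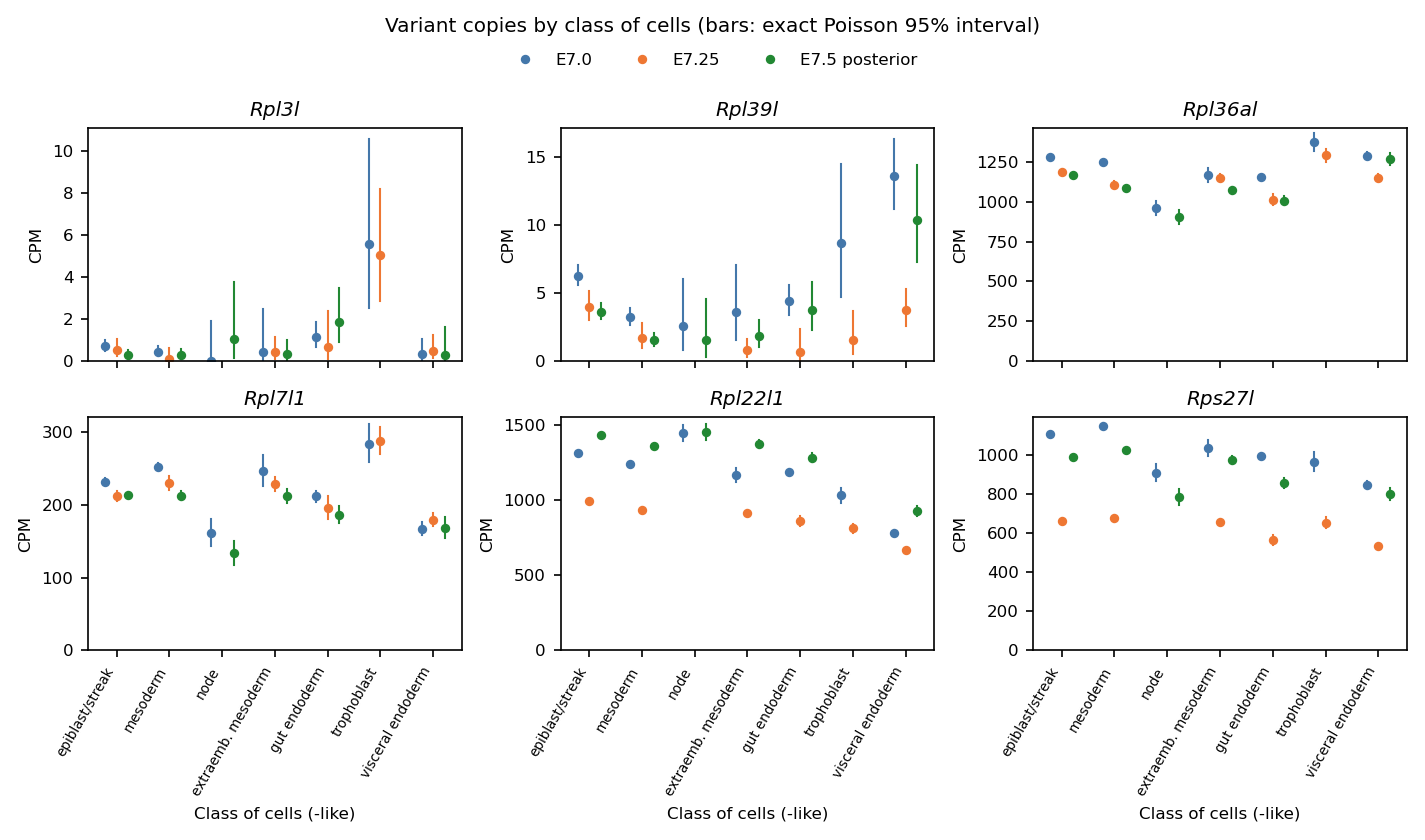
Level in CPM (vertical axes, each from 0) of 6 variant copies by class of cells and library, with exact Poisson 95% intervals as lines. Rpl3l is highest in trophoblast-like cells (5.57 and 5.05 CPM), Rpl39l is highest in visceral endoderm-like cells at E7.0 and E7.5 posterior (13.6 and 10.4 CPM), and Rpl36al and Rpl7l1 are lowest in node-like cells.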

How the data were processed

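The authors deposited raw UMI counts per gene and barcode, filtered to called cells. Per the file headers the software was Cell Ranger 6.0.1, with build and annotation not given in the sources used here. Per the labels' protocols, the cells went through trypsin, a 40 µm strainer and 1 channel for each library, aimed at 10000 cells, with 3′ chemistry v3.0 or v3.1.

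Cells with 1000 or more genes and at most 10% mitochondrial UMIs were kept. Predicted doublets were kept in the reported values, because the rule for cells does not name them, and removed in an alternative. Clustering (scanpy 1.11.5, leidenalg 0.10.2) left out the members and their pseudogenes. It used 2000 variable genes, 30 components, 15 neighbours, resolution 1 and seed 0, on counts scaled to 10000 UMIs outside the members. Clusters were named by the class with most fixed markers, and at least 3, among their top 100 genes. Counts were summed per library, or per class with 100 or more cells, and divided by all UMIs (CPM). Called means at least 1.5-fold, among genes at 50 CPM or more in at least 1 library compared, or 20 CPM for other lists. Intervals are exact (Clopper-Pearson, Poisson, or conditional binomial for ratios). No test was run. On counts simulated as Poisson draws for E7.25 against E7.0, over 2664 genes, 94.8% of intervals held the true ratio. The intervals assume such counts, so this checks the computation only. It holds no variation between cells, embryos or libraries.

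Gene models are GENCODE M21 on GRCm38, which held 86 of 86 members. TMM factors came from edgeR 4.0.16. The genes given with values are the 5 highest and 5 lowest ratios per comparison, the 8 widest in makeup, variant copies and partners, the most and least abundant, the stalk members, Rpl5, Rpl11 and Rpl38. A few others that crossed the threshold are named too, chosen after their values were seen. The members and lists were chosen with earlier results of these data known. Values of a few genes that this rule takes are not reported here.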

Additional observations from a re-analysis of the deposited data

How the results depend on the processing

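No paired analysis was possible because each stage is 1 library. The gap between visceral endoderm-like and epiblast and streak-like cells kept its sign. So did every called ratio among the 5 highest and 5 lowest members of a comparison. The signs of other members' ratios were not followed, and small ratios can change sign with the scaling. The cause of each change below was not tested. The member percent at E7.0 was 28.30 from 500 detected genes, 28.24 from 2000, 28.56 at 5% mitochondrial UMIs, 28.26 without predicted doublets, 28.31 without the 2 clusters of high UMI count, 28.23 without the 2 clusters of few mitochondrial UMIs, 29.02 without mitochondrial UMIs in the total and 28.15 as a mean over cells. At E7.5 posterior the same settings gave 27.48, 27.36, 27.96, 27.52, 27.52, 27.37, 28.53 and 27.73. At E7.25 it was 27.43 at 5% mitochondrial UMIs, 26.51 and 26.68 without the clusters of high UMI count and of few mitochondrial UMIs, 27.46 without mitochondrial UMIs in the total and 26.44 as a mean over cells. Leaving out these clusters was chosen after seeing the data.

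The gap between visceral endoderm-like and epiblast and streak-like cells at E7.0 was -7.45 points from 500 genes, -7.92 from 2000, -5.77 at 5% mitochondrial UMIs, -8.44 without doublets, -7.72 with 50 components, -8.22 thinned, -8.37 without the clusters of high UMI count and -8.19 without those of few mitochondrial UMIs. At E7.5 posterior these settings gave -7.01, -7.74, -3.49, -8.35, -7.80, -8.69, -8.28 and -8.54, and -7.79 with each library clustered by itself. At E7.25 the gap was -7.05 from 2000 genes, -5.03 at 5% mitochondrial UMIs, -9.15 without doublets, -7.09 with the library clustered by itself, -4.80 with members kept in the clustering, -8.33 thinned and -9.25 without the clusters of high UMI count.

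For E7.25 against E7.0, the median ratio changed sign to 0.012 as a share of member UMIs and was -0.27 by TMM. Members higher numbered 2 on totals outside the members and 1 by TMM, and those lower 17 by TMM. Rpl26 and Rpl12 fell below 1.5-fold under both scalings and Rpsa by TMM. TMM gave medians of 0.15 for E7.5 posterior against E7.25, with 0 lower, and -0.12 against E7.0, and at 10 UMIs in both libraries in place of the CPM limit 2 members were lower against E7.0. Departures in makeup at E7.0 numbered 0 with each library clustered by itself, 0 at resolution 2 and 2 without doublets, and at E7.5 posterior 1 and 1 under the first 2 of these. Of the other class differences, 9 of 137 changed sign under an alternative. Depth limits the rarest copies: a count of 0 in a class allows up to 3 UMIs.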
